A study of Caenorhabditis elegans with 24 samples.

Results

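The non-fluorescent cells of Caenorhabditis elegans hermaphrodites at late L4, the end of the last larval stage, were compared with the same fraction at early L4. The comparison rested on the 6 libraries whose labels name cells other than the distal tip cell (DTC) at these stages, 3 of late L4 and 3 of early L4, out of 24 libraries in the series. The DTC sits at the tip of each gonad arm, where it leads migration and keeps germ cells dividing. All groups came from animals labelled wild-type that carried a Venus label in the DTC and grew at 20 °C on OP50 bacteria, the late L4 and early L4 groups being the Venus-negative fraction and the DTC groups the Venus-positive one. Other cells therefore stood for a mixture of every remaining tissue, 30000 to 60000 cells a sample, and neither the transgene behind the Venus label nor the animals' age in hours was stated in the labels. Nothing in the labels ties the 3 samples of a group to separate cultures, and the p-values reflect the variation among those samples alone, which may be technical.

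L4 is the stage in which the larva finishes its reproductive system and lays down the cuticle of the adult. In each larval cycle the epidermis first secretes a provisional matrix, the precuticle, then the collagens of the next cuticle, which are switched on in successive waves before the old cuticle is shed. In the hermaphrodite gonad the first germ cells to differentiate become sperm, after which the germline switches to oocytes, while the uterus, spermatheca, sheath and vulva take shape. Yolk proteins are made in the intestine of the adult and taken up by oocytes.

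Total counts were 11896485, 12224023 and 12100826 in late L4 and 17715115, 17362059 and 17576836 in early L4. Late L4 replicate 3 stood apart from the other late L4 libraries. It held 7.25% of counts in ribosomal RNA genes and 0.46% in mitochondrial genes, against 16.11% and 14.48% and against 2.06% and 1.83% in late L4 replicates 1 and 2. Early L4 replicate 3 held 4.14% of counts in mitochondrial genes, against 0.95% and 1.57% in early L4 replicates 1 and 2. The early L4 libraries held 13.98%, 17.44% and 17.5% in ribosomal RNA genes. Library pairs differed by 0.973 to 1.201 in late L4 and by 0.645 to 0.701 in early L4 (root mean square, log2 scale). Levels are given as CPM, read counts relative to the scaled library total. Of 16 genes listed for the DTC, some were at or near 0 in the negative fraction and others were not. The Notch ligand gene lag-2 had 0, 0 and 2.28 CPM in late L4 and 0.476, 2.78 and 0.53 CPM in early L4, while the DTC libraries of these stages held 194 to 341 CPM. srt-62 and fbxa-154 had no count in late L4 and at most 0.469 CPM in early L4. The netrin receptor gene unc-5 had 27.5, 8.28 and 19.2 CPM in late L4 and 35.8, 30.5 and 33.7 CPM in early L4, and the nidogen gene nid-1 had 67, 67.9 and 34 CPM in late L4 and 102, 93.6 and 78.3 CPM in early L4. Of the 12 listed genes tested, skpo-1 and mig-6 rose and cyn-17 fell, and egl-36, not called, had 40.8, 8.21 and 57.4 CPM in late L4 and 0, 1.29 and 2.16 CPM in early L4. Of all genes tested, late L4 replicate 3 was the highest late L4 library for 44.6% and the lowest for 27.9%. Leaving it out changed many calls and list counts, and values without it are given below for only part of these.

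Of 14505 genes tested, 706 were higher (4.87%) and 195 were lower (1.34%) at late L4, which is 6.21% called in either direction at a Benjamini-Hochberg adjusted p under 0.05 in edgeR's quasi-likelihood test. The median log2 fold change was 2.70 over the genes called higher and -4.36 over those called lower, and 0.00 over all genes tested. Of the genes called higher, 487 changed at least 4-fold and 169 at least 32-fold, and of those called lower 147 and 83 did. In every called gene the late L4 libraries lay outside the range of the early L4 libraries, which was also true of 15.3% of all genes upwards and 13.7% downwards. Without late L4 replicate 3 the test called 946 genes higher (6.12% of those tested) and 480 lower (3.11%), and without early L4 replicate 3 it called 227 higher and 23 lower. In such a mixture of tissues, fewer cells of a type and less RNA per cell cannot be told apart.

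**Figure D1:**
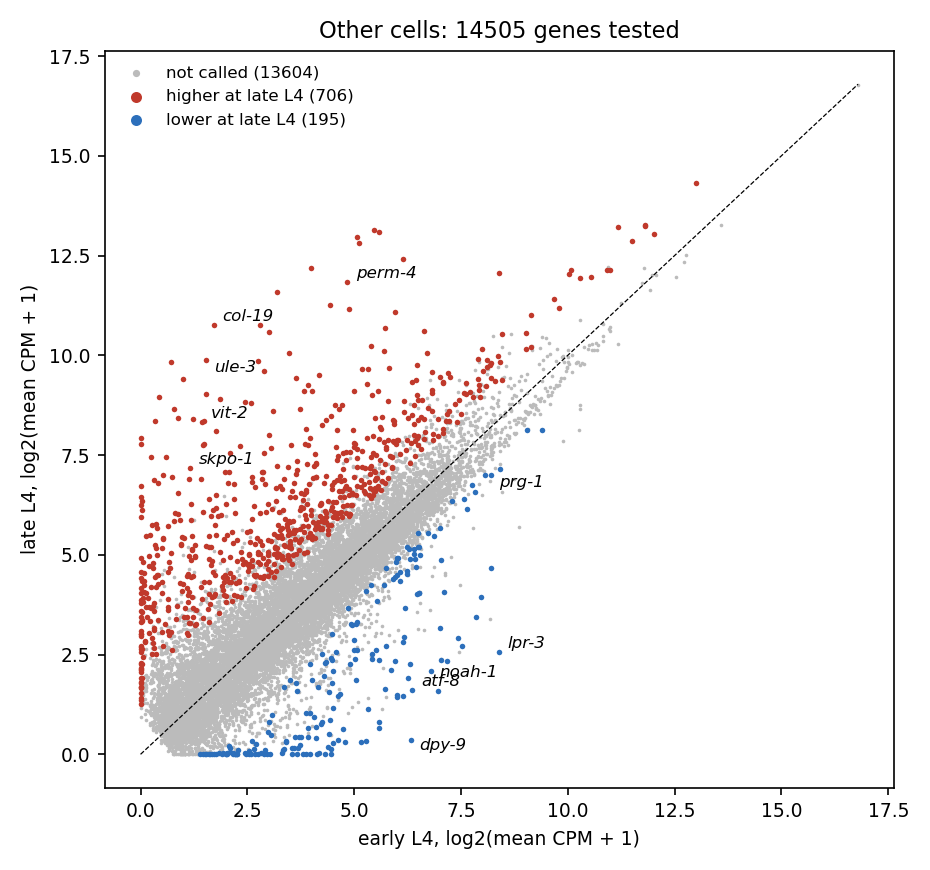
Mean level of each gene tested in the 3 late L4 libraries (vertical axis) against the 3 early L4 libraries (horizontal axis), both as log2 of mean CPM + 1, in other cells. Red points are the 706 genes called higher at late L4 and blue points the 195 called lower, and the dashed line marks equal levels.

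The genes with the largest rises were nearly silent at early L4 and encode secreted or little-studied proteins. The leading gene was ZK813.2 (WBGene00022821, chrX:3443826-3444191, ce11), with 133, 103.6 and 487 CPM in late L4 and no count in early L4. That is at least 5894-fold higher against a floor of 3 counts over the early L4 group (adjusted p = 0.00373). H29C22.1, on the X chromosome too, had 51.6, 63.3 and 111 CPM in late L4 and no count in early L4, at least 1872-fold higher (adjusted p = 0.00106). All 3 late L4 libraries were high for both genes, with replicate 3 the highest. The chitinase gene cht-3 (chrIV:7003623-7009268) had 595, 455 and 1676 CPM in late L4, against 0.0397, 0.156 and 1.71 CPM in early L4, a log2 fold change of 10.47 ± 1.35 (SE, adjusted p = 0.00516). The lectin-like gene clec-97 had 34.2, 13.6 and 20.3 CPM in late L4 and no count in early L4, at least 567-fold higher (adjusted p = 0.00248). The 15 genes of largest rise by the naming rule also included C10G8.4, C30G7.4, W02D9.7, Y37D8A.19 and Y47D7A.6. Each of the 15 stayed called when any 1 of the 6 libraries was left out. In 12 of the 15 the adult mean was at or above the late L4 mean, against 241 of all 706 genes called higher.

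The largest falls included genes of the cuticle and precuticle. F31B9.4 (chrX:15915699-15917100) had no count in late L4 and 22.1, 21.2 and 19.1 CPM in early L4, at least 278-fold lower (adjusted p = 0.00177). The bZIP transcription factor gene atf-8 (chrV:6105607-6107530) had 1.8, 3.07 and 1.34 CPM in late L4, against 81.5, 70 and 92.7 CPM in early L4. Its log2 fold change was -5.29 ± 0.40 (adjusted p = 0.00055). The class VII myosin gene hum-6 had 0.675, 0.214 and 0.788 CPM in late L4 and 31.6, 14.6 and 30.4 CPM in early L4, a log2 fold change of -5.51 ± 0.62 (adjusted p = 0.003). For these 3 genes every late L4 library was far below every early L4 library, and the call held with any 1 library left out. F49E10.2, Y54G2A.76, dpy-9 and dpy-3 also kept their calls in all 6 such fits. The falls of R05G6.9, Y38H8A.1, F23H12.5, H03E18.1, col-46, sups-1, lpr-3 and lpr-5 did not hold in every one. They were called in 4, 4, 2, 2, 5, 3, 5 and 3 of the 6 fits, in that order. The adjusted p of R05G6.9 was 0.0586 without early L4 replicate 2 and 0.0546 without early L4 replicate 3. It was up to 0.14 for F23H12.5, 0.176 for H03E18.1 and 0.117 for sups-1. In each of the 15 genes of largest fall, the late L3 mean was at least 4 times the late L4 mean, as in 136 of all 195 genes called lower.

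**Figure D2:**
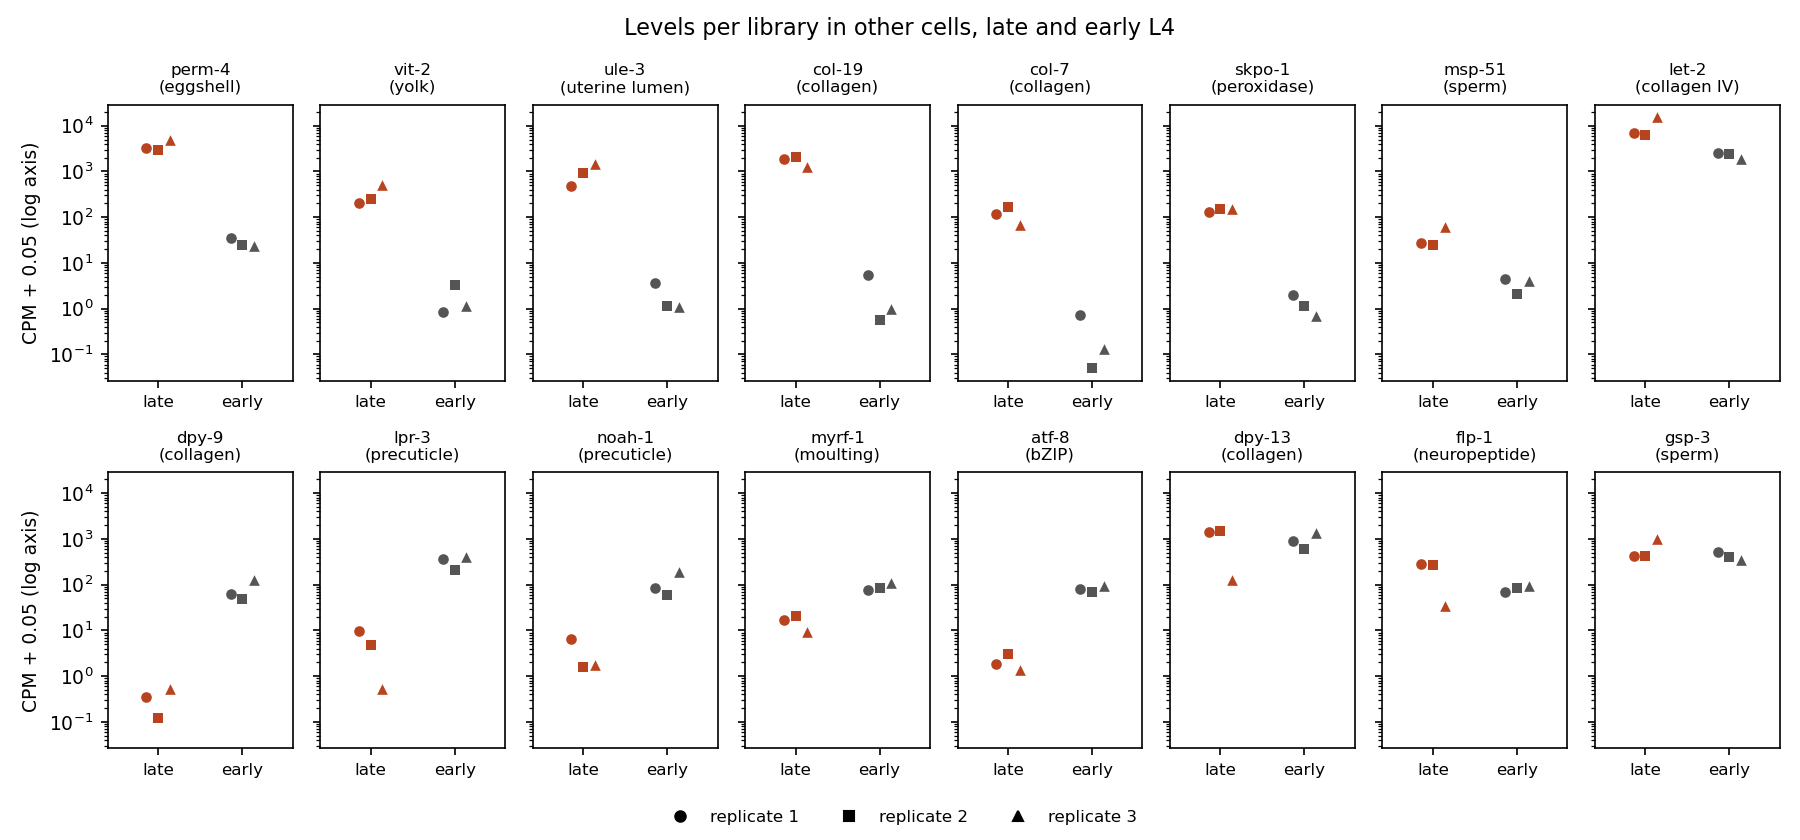
Level of 16 genes in each library of other cells, as CPM + 0.05 on a log axis, with late L4 left of early L4 and a marker shape for each replicate. The groups are far apart for genes such as perm-4, skpo-1 and atf-8, while late L4 replicate 3 lies well below replicates 1 and 2 for dpy-13 and flp-1.

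Many cuticle collagen genes of the col class rose. Of 124 tested members 49 were higher (39.5%, against 4.87% of all genes) and 2 were lower (1.61%, against 1.34%), and the median log2 fold change was 2.04. Their summed share of counts was 10.8%, 11.8% and 5.76% in late L4, against 0.998%, 0.852% and 1.35% in early L4. The adult cuticle collagen gene col-19 (chrX:421707-422691) had 1863, 2087 and 1264 CPM in late L4, against 5.48, 0.509 and 0.938 CPM in early L4. Its log2 fold change was 9.55 ± 1.05 (adjusted p = 0.00259), and no library of one stage overlapped the other. col-143 had 746, 526 and 764 CPM in late L4, against 0.834, 1.96 and 0.204 CPM in early L4, with a log2 fold change of 9.40 ± 0.81 (adjusted p = 0.00109). The pair of neighbours col-7 and col-62 on chromosome I rose as well. col-7 had 116, 165 and 68.1 CPM in late L4, against 0.675, 0 and 0.0815 CPM in early L4 (log2 fold change 8.81 ± 1.04, adjusted p = 0.00373). col-62 had 116, 163 and 53.3 CPM in late L4, against 0.278, 0.469 and 0.204 CPM in early L4 (log2 fold change 8.41 ± 0.61, adjusted p = 0.000485).

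The risen collagen genes differed in their levels at the adult stage. Of the 49, 21 had an adult mean at or above the late L4 mean and in 23 the late L4 mean was over 4 times the adult mean. Over all 706 genes called higher these counts were 241 and 210. col-19 stood at 1088, 2854 and 3785 CPM in adults and at 0, 0.103 and 0.183 CPM in late L3. col-7 stood at 0.736, 1.69 and 0.103 CPM in adults, and col-62 at 1.96, 1.29 and 5.68 CPM, so that late L4 held their highest levels among late L4, early L4 and adult libraries. Late L4 replicate 3 was the lowest of the late L4 libraries for 107 of the 124 collagen genes, against 27.9% of all genes. Without it 72 col genes were higher and 5 lower, and without early L4 replicate 3 32 were higher and 0 lower. Some col genes are near-identical in sequence, so counts of single members are uncertain.

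Collagen genes known for body-shape or blister phenotypes did not follow the col class. The list of 24 tested also held col-7, col-19 and col-62, genes of the col class described above. Only those 3 rose (12.5%, against 4.87% of all genes), so no gene of the list outside the col class was called higher. Of the 24, 5 fell (20.8%, against 1.34%). The median log2 fold change was -2.1. All 5 that fell, dpy-3, dpy-7, dpy-8, dpy-9 and dpy-10, encode collagens of the furrows that ring the cuticle. dpy-9 (chrIV:257403-259204) had 0.3, 0.0714 and 0.473 CPM in late L4, against 63.1, 48.5 and 126 CPM in early L4. Its log2 fold change was -8.13 ± 0.68 (adjusted p = 0.000999). dpy-3 had 1.12, 0.571 and 0.0788 CPM in late L4, against 36.3, 21 and 84.3 CPM in early L4 (log2 fold change -6.29 ± 0.87, adjusted p = 0.00683). dpy-7 had 0.45, 4.28 and 0.63 CPM in late L4 and 42.3, 28.5 and 118.5 CPM in early L4 (log2 fold change -5.13 ± 0.98, adjusted p = 0.0234). Its adjusted p was between 0.0655 and 0.1040 without early L4 replicate 1, early L4 replicate 3 or late L4 replicate 1. The fall of dpy-10 (log2 fold change -3.50, adjusted p = 0.0405) held in 1 of the 6 fits with a library left out, with an adjusted p of up to 0.154.

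Other body-shape collagens split the late L4 libraries. dpy-13 had 1405, 1513 and 124 CPM in late L4, against 901, 600 and 1329 CPM in early L4. Replicates 1 and 2 of late L4 lay above all early L4 libraries and replicate 3 below them, and the log2 fold change was 0.10 ± 0.76 (adjusted p = 0.962). sqt-1 had 348, 464 and 21.8 CPM in late L4 and 1182, 761 and 1766 CPM in early L4 (log2 fold change -2.15 ± 0.89, adjusted p = 0.228). bli-2, a strut collagen gene, had 71, 77.7 and 3.7 CPM in late L4 and 453, 283 and 644 CPM in early L4 (log2 fold change -3.18 ± 0.93, adjusted p = 0.0923). Without late L4 replicate 3 the adjusted p was 0.0316 for sqt-1 and 0.00511 for bli-2, and 4 of the 24 genes were called higher and 9 lower. The number called lower was 2 without early L4 replicate 3 and 3 without early L4 replicate 1.

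Precuticle genes were lower at late L4. Of 17 tested, 9 fell (52.9%, against 1.34% of all genes) and 0 rose, with a median log2 fold change of -2.62. Their summed share was 0.0312%, 0.0278% and 0.0154% of counts in late L4, against 0.181%, 0.122% and 0.238% in early L4. sym-1, a leucine-rich repeat matrix gene, had 11.9, 12.6 and 5.12 CPM in late L4, against 259, 145 and 289 CPM in early L4. Its log2 fold change was -4.54 ± 0.47 (adjusted p = 0.00222). noah-1, which encodes a zona pellucida domain matrix protein, had 6.52, 1.5 and 1.73 CPM in late L4 and 85.8, 60.3 and 186 CPM in early L4 (log2 fold change -5.09 ± 0.74, adjusted p = 0.00828). let-4, another leucine-rich repeat gene of the apical matrix, had 21.5, 11.9 and 13.2 CPM in late L4 and 92.9, 74.9 and 103.3 CPM in early L4 (log2 fold change -2.54 ± 0.32, adjusted p = 0.00503). No late L4 library reached an early L4 library in these 3 genes, and the calls held with any 1 library left out.

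The lipocalin gene lpr-3 had 9.52, 4.64 and 0.473 CPM in late L4, against 372, 213 and 413 CPM in early L4 (log2 fold change -6.09 ± 0.93, adjusted p = 0.00985). That call was lost without early L4 replicate 3 (adjusted p = 0.0569). dpy-6, let-653, noah-2 and the fibrillin-like gene fbn-1 fell with log2 fold changes of -5.60, -3.71, -4.97 and -4.61, calls that held in 2, 2, 3 and 2 of the 6 fits with a library left out. The number of precuticle genes called lower was 3 without early L4 replicate 3 and 4 without early L4 replicate 1 or early L4 replicate 2. It was 10 without late L4 replicate 3 and 3 in the fit over all 24 libraries.

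Moulting regulators and proteases were lower where they changed. Of 25 tested 5 fell (20%) and 0 rose, and the median log2 fold change was -1.21. myrf-1, a membrane-anchored transcription factor gene, had 17.2, 20.6 and 8.98 CPM in late L4, against 74.9, 86.6 and 110 CPM in early L4. Its log2 fold change was -2.53 ± 0.37 (adjusted p = 0.00829), and the adjusted p was 0.053 without early L4 replicate 3. nhr-23, a nuclear receptor gene of the moulting cycle, had 13.1, 20.8 and 31.7 CPM in late L4 and 78, 69.5 and 73.9 CPM in early L4 (log2 fold change -1.76 ± 0.35, adjusted p = 0.0274). nhr-25, another receptor of this class, had no count in late L4 and 3.18, 1.76 and 1.39 CPM in early L4, at least 28.2-fold lower (adjusted p = 0.0425). The calls of nhr-23, nhr-25 and qua-1 each held in 1 of the 6 fits with a library left out. The astacin protease gene nas-37, which acts in shedding the old cuticle, had 9.14, 14.4 and 10.2 CPM in late L4 and 17.4, 12.4 and 41.4 CPM in early L4, and the groups overlapped (adjusted p = 0.286). The count of moulting genes called lower ranged from 0 without early L4 replicate 3 to 6 without late L4 replicate 3.

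Among 13 genes of collagen processing, the haem peroxidase gene mlt-7 rose (7.69%, against 4.87% of all genes) and mlt-11 and dpy-11 fell (15.4%, against 1.34%). mlt-7 had 108, 133 and 18.2 CPM in late L4, against 10.6, 11 and 12.1 CPM in early L4 (log2 fold change 2.94 ± 0.65, adjusted p = 0.0384), and its adjusted p was 0.000251 without late L4 replicate 3. mlt-11, a protease inhibitor gene, had 13.5, 2.43 and 0.63 CPM in late L4 and 172, 134 and 241 CPM in early L4 (log2 fold change -5.04 ± 0.99, adjusted p = 0.0255). These calls are the less certain ones. mlt-7 was called in 1 and mlt-11 in 2 of the 6 fits with a library left out, with an adjusted p of up to 0.158 and 0.105.

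Hedgehog-related and patched-related genes, whose products are secreted or membrane proteins of epidermal and other epithelia, moved in both directions. Of 63 tested 8 rose (12.7%) and 6 fell (9.52%), and the median log2 fold change was -0.61. grd-6 had 170, 156 and 27.3 CPM in late L4, against 2.54, 0.0782 and 0.938 CPM in early L4 (log2 fold change 6.63 ± 1.16, adjusted p = 0.0165, and 0.11 without early L4 replicate 3). grl-2 had 0.15, 0 and 0.0788 CPM in late L4, 3 counts in all, against 9.01, 8.92 and 9.54 CPM in early L4. It was 122.2-fold lower with a 95% counting interval of 41.6 to 594 (adjusted p = 0.00589), and that call held with any 1 library left out. grd-5 had 119.1, 120.1 and 96.5 CPM in late L4 and 21.8, 11.1 and 33.6 CPM in early L4 (log2 fold change 2.34 ± 0.41, adjusted p = 0.0166). Leaving out early L4 replicate 1 or late L4 replicate 1 ended the call of grd-5. The counts of the family were 2 higher and 1 lower without early L4 replicate 1, and 9 higher and 8 lower without late L4 replicate 3.

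**Figure D3:**
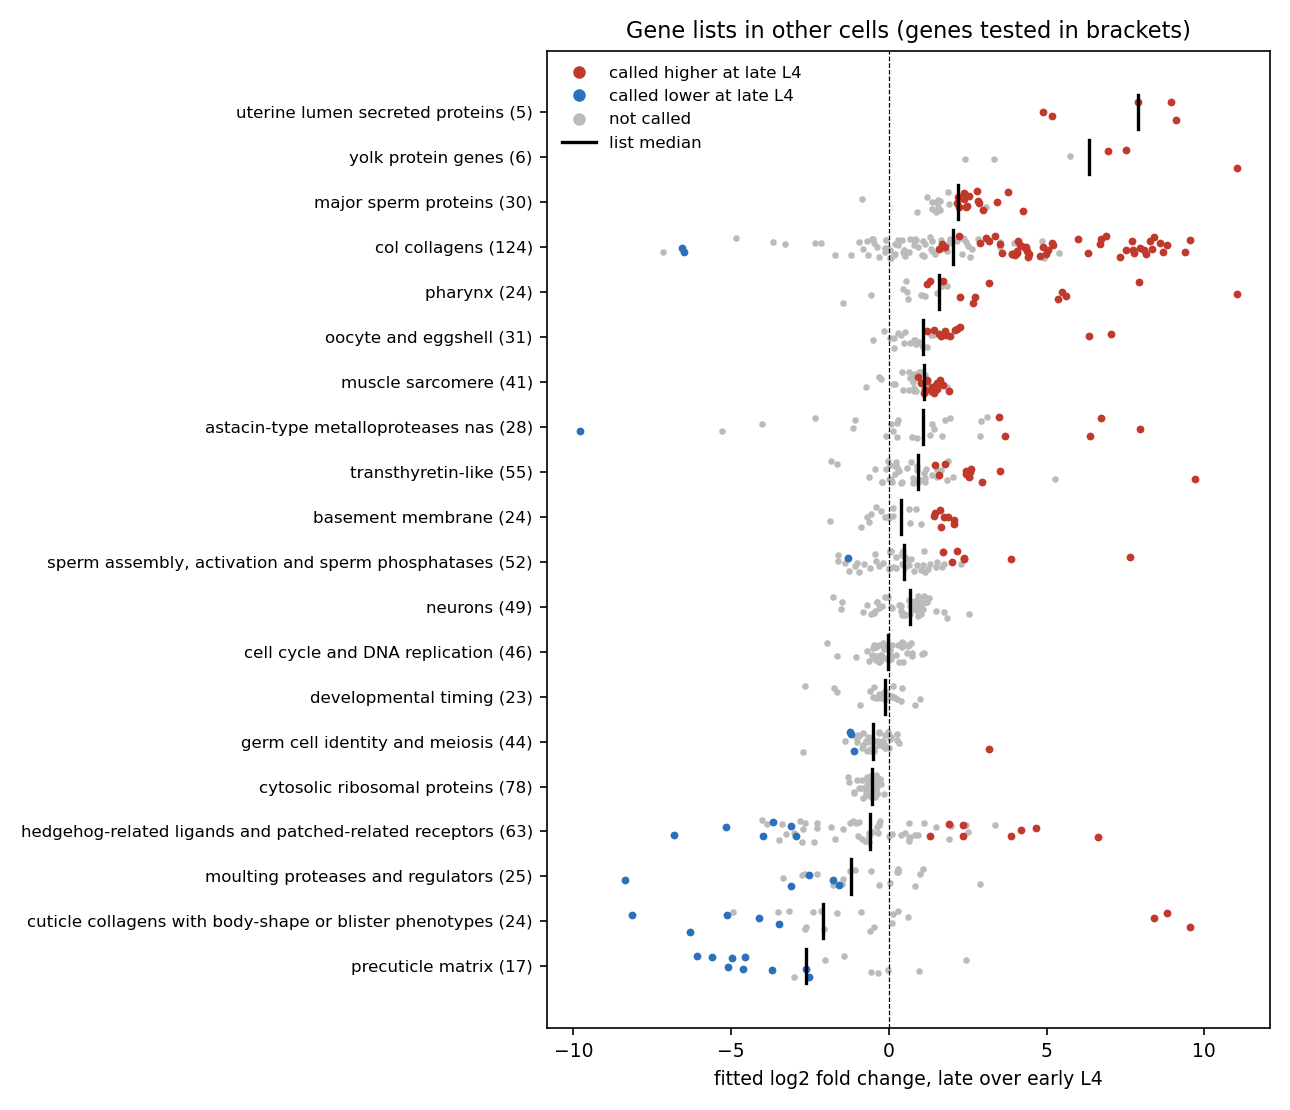
Fitted log2 fold change of late over early L4 in other cells for the members of 20 gene lists, 1 point a gene. Red and blue points were called higher and lower, grey points were not called, and black bars mark the medians, from 7.91 for uterine lumen proteins to -2.62 for the precuticle matrix.

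Genes of the uterine lumen, eggshell and yolk included many that rose. All 5 uterine lumen genes tested were higher, with a median log2 fold change of 7.91. ule-3 (chrV:10793798-10794924) had 478, 915 and 1445 CPM in late L4, against 3.53, 1.1 and 1.06 CPM in early L4 (log2 fold change 8.96 ± 0.77, adjusted p = 0.00108). ule-4 had 981, 902 and 1739 CPM in late L4 and 31.6, 24.06 and 67.4 CPM in early L4 (log2 fold change 4.88 ± 0.51, adjusted p = 0.00236). Of the 5, the call of ule-1 was lost without early L4 replicate 3 (adjusted p = 0.0601), and the other ule genes kept theirs in every fit with a library left out. For each of the 5, late L4 replicate 3 was the highest late L4 library, as it was for 44.6% of all genes. The adult mean was at or above the late L4 mean for each of the 5, against 241 of all 706 genes called higher.

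Of 31 oocyte and eggshell genes, 12 rose (38.7%) and 0 fell, with a median log2 fold change of 1.09. perm-4 and perm-2, neighbours on chromosome IV whose products are needed for the eggshell, rose most. perm-4 (chrIV:1121494-1125107) had 3241, 2890 and 4899 CPM in late L4, against 34.7, 24.8 and 23.4 CPM in early L4 (log2 fold change 7.05 ± 0.37, adjusted p = 0.00019). perm-2 (chrIV:1126790-1128865) had 1817, 1690 and 3345 CPM in late L4 and 33, 32.2 and 19.7 CPM in early L4 (log2 fold change 6.33 ± 0.43, adjusted p = 0.000452). The groups were far apart for both, and no omission of a library ended either call. The other rises were smaller. The chondroitin proteoglycan gene cpg-3 had 389, 458 and 753 CPM in late L4, against 125.5, 115.0 and 96.9 CPM in early L4 (log2 fold change 2.25 ± 0.31, adjusted p = 0.00708, and 0.0569 without early L4 replicate 3). The chitin synthase gene chs-1, the RNA-binding protein genes oma-2 and puf-5 and the oocyte surface gene egg-1 rose with log2 fold changes of 1.6, 1.67, 2.16 and 1.93, calls that held in 2, 2, 3 and 4 of the 6 fits with a library left out. The yolk receptor gene rme-2 had 362, 347 and 622 CPM in late L4 and 261, 245 and 173 CPM in early L4, separate but not called (log2 fold change 0.97 ± 0.31, adjusted p = 0.124). Each of the 12 risen genes had an adult mean at or above the late L4 mean, against 241 of all 706 genes called higher. The count called was 3 without early L4 replicate 3, 4 without early L4 replicate 1, 7 without early L4 replicate 2 and 2 in the fit over all 24 libraries.

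Of 6 vitellogenin (yolk protein) genes, vit-2, vit-5 and vit-6 were called higher, with a median of 6.34 over the 6. vit-2 (chrX:5101042-5106169) had 200, 244 and 510 CPM in late L4, against 0.794, 3.25 and 1.1 CPM in early L4 (log2 fold change 7.53 ± 0.74, adjusted p = 0.00178). vit-5 had 27.3, 33.3 and 147 CPM in late L4, and 2 counts in 1 of the early L4 libraries, a 2538-fold ratio with a 95% counting interval of 702 to 20967 (adjusted p = 0.00248). The call of vit-6 (log2 fold change 6.94 ± 1.53, adjusted p = 0.0379) held without early L4 replicate 2 or late L4 replicate 3 and was lost without any other library (adjusted p of up to 0.125). Yolk levels at late L4 were still far under those of adults, where vit-2 stood at 3066, 7394 and 13772 CPM. vit-3, vit-4 and vit-5 are near-identical, so their counts are uncertain.

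**Figure D4:**
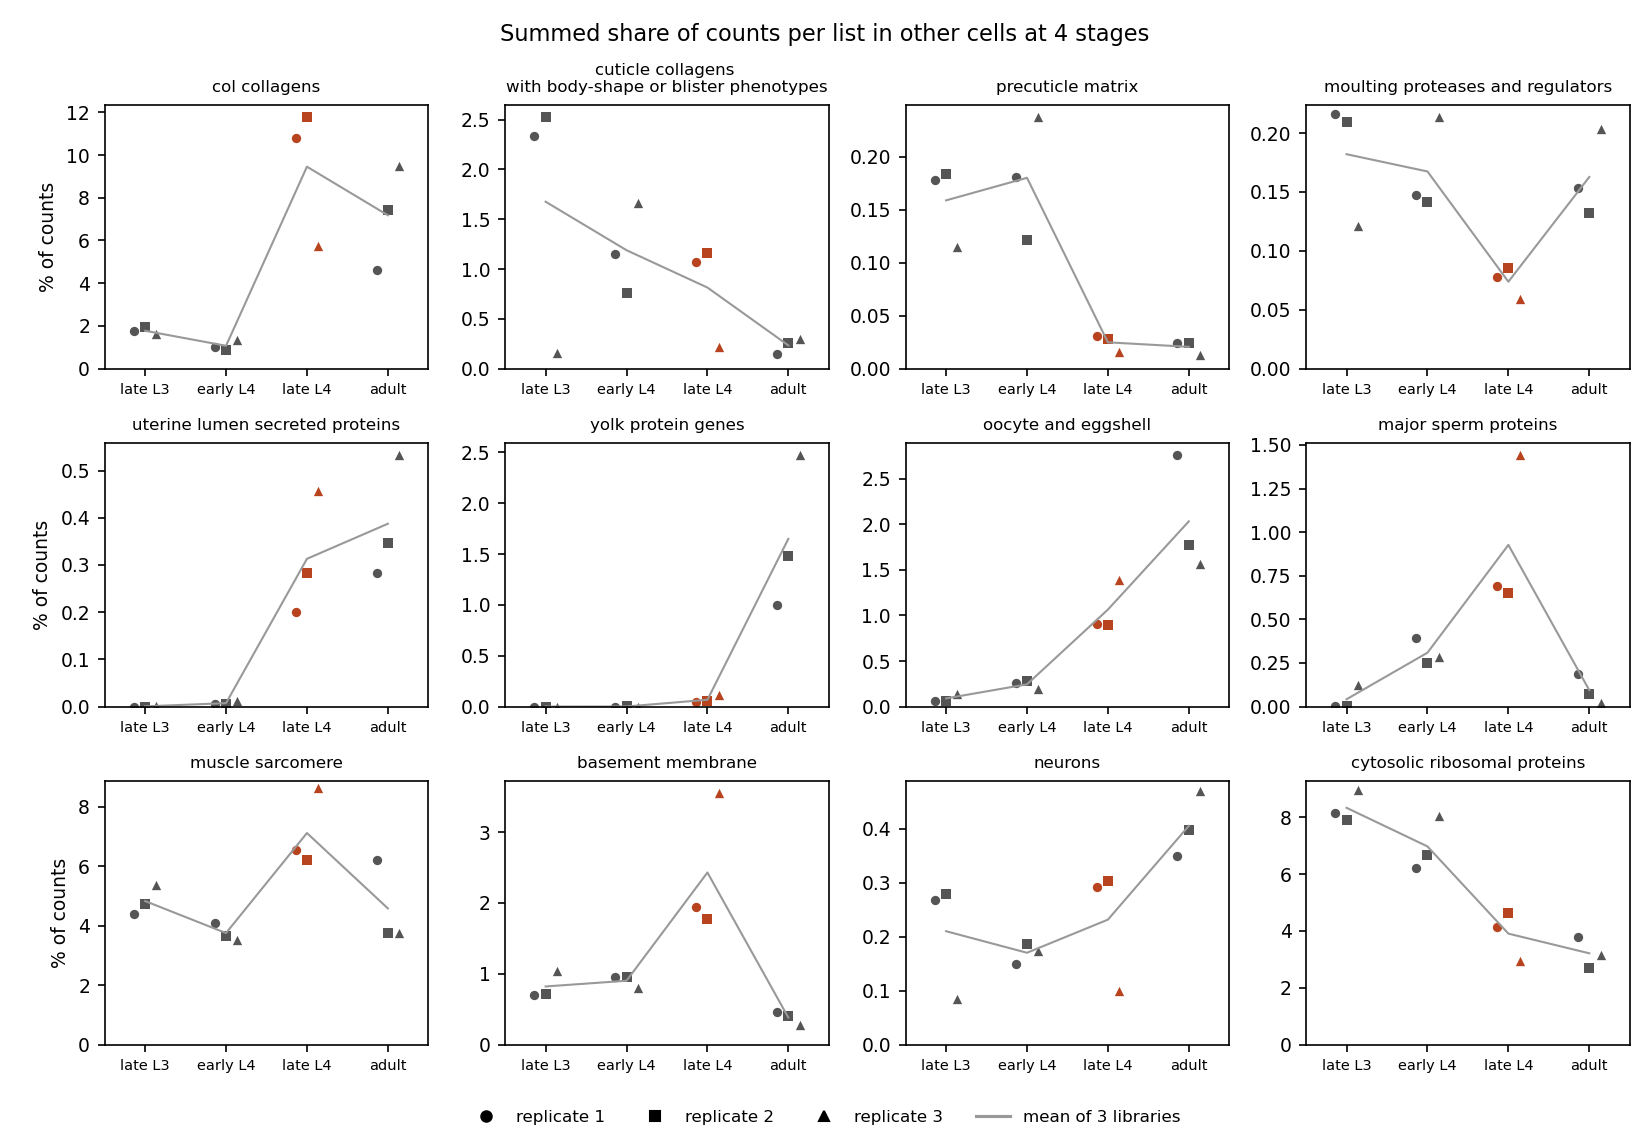
Summed share of counts (percent) of 12 gene lists in the 3 libraries of other cells at each of 4 stages, with the mean as a line and late L4 in colour. The precuticle share is low from late L4 on, the major sperm protein share is highest at late L4, and late L3 replicate 3 and late L4 replicate 3 lie apart from their groups for several lists.

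Sperm genes moved in both directions. Of 30 major sperm protein genes, which encode the sperm's cytoskeleton and an oocyte signal, 16 rose (53.3%) and 0 fell, with a median log2 fold change of 2.21. Their share was 0.689%, 0.652% and 1.44% of counts in late L4, against 0.392%, 0.248% and 0.287% in early L4. msp-65 had 79.7, 78.2 and 152 CPM in late L4 and 6.75, 3.87 and 5.63 CPM in early L4 (log2 fold change 4.25 ± 0.41, adjusted p = 0.00165). msp-55 had 124, 99.9 and 261 CPM in late L4 and 16.3, 8.96 and 9.82 CPM in early L4 (log2 fold change 3.79 ± 0.47, adjusted p = 0.00456). Both calls held with any 1 library left out. Late L4 replicate 3 was the highest late L4 library for all 30 genes, against 44.6% of all genes, and without it 21 were called. The count was 2 without early L4 replicate 3, 3 without early L4 replicate 2, 11 without early L4 replicate 1 and 1 in the fit over all 24 libraries. The members share most of their sequence, so reads may be split among them and the 16 calls are not separate evidence.

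Of 52 other sperm genes, 7 rose (13.5%) and spe-5 fell, and the median was 0.49. The count called higher was 0 without early L4 replicate 1 or early L4 replicate 3, 2 without early L4 replicate 2, 4 without late L4 replicate 1 and 1 in the fit over all 24 libraries. Late L4 replicate 3 was the highest late L4 library for 47 of the 52, against 44.6% of all genes. Without it 6 were higher and 3 lower with a median of 0.03. The sperm phosphatase gene gsp-3 had 425, 421 and 989 CPM in late L4, against 529, 406 and 345 CPM in early L4, with overlapping groups (log2 fold change 0.52 ± 0.38, adjusted p = 0.525). The sperm chromatin gene spch-1 overlapped likewise, with 874, 775 and 1777 CPM in late L4 and 1159, 736 and 662 CPM in early L4 (adjusted p = 0.614). Among 19 regulators of sperm fate and spermatogenesis 0 rose and 2 fell. fog-3, which directs germ cells to the sperm fate, had 0.825, 0.857 and 4.25 CPM in late L4, against 18.8, 22.1 and 19.8 CPM in early L4 (log2 fold change -3.36 ± 0.70, adjusted p = 0.0327). spe-44, a regulator of sperm gene transcription, had 72.9, 76.1 and 102 CPM in late L4 and 214, 201 and 155 CPM in early L4 (log2 fold change -1.18 ± 0.26, adjusted p = 0.0372). Both falls were called in 1 of the 6 fits with a library left out, the one without late L4 replicate 3, where 5 of the 19 regulators fell.

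Of 44 genes of germ cell identity and meiosis, nos-2 rose (2.27%, against 4.87% of all genes). htp-1, htp-2 and prg-1 fell (6.82%, against 1.34%), and the median was -0.49. nos-2, of the Nanos family, had 18.2, 21.3 and 49.4 CPM in late L4, against 3.49, 2.07 and 4.16 CPM in early L4 (log2 fold change 3.19 ± 0.52, adjusted p = 0.0132, and 0.0638 to 0.0676 without any 1 early L4 library). The Piwi gene prg-1 had 107, 135 and 141 CPM in late L4 and 299, 327 and 255 CPM in early L4 (log2 fold change -1.20 ± 0.24, adjusted p = 0.0268, and up to 0.13 with a library left out). The germline Notch receptor gene glp-1 had 46.7, 80.2 and 41 CPM in late L4 and 50.9, 43.3 and 44.8 CPM in early L4, overlapping (adjusted p = 0.704). Without late L4 replicate 3, 8 of the 44 were lower, and without any 1 other library 0 were. Late L4 replicate 3 was the highest late L4 library for 30 of the 44, against 44.6% of all genes.

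Muscle sarcomere genes rose by moderate amounts. Of 41 tested 17 were higher (41.5%) and 0 lower, with a median log2 fold change of 1.11, and their summed share was 6.54%, 6.2% and 8.62% in late L4 against 4.08%, 3.65% and 3.53% in early L4. The troponin I gene tni-3 had 102, 75.9 and 111 CPM in late L4 and 25.5, 23 and 27.9 CPM in early L4 (log2 fold change 1.92 ± 0.26, adjusted p = 0.00629), a call that held with any 1 library left out. The tropomyosin gene lev-11 had 3432, 3395 and 5048 CPM in late L4 and 1665, 1384 and 1438 CPM in early L4 (log2 fold change 1.40 ± 0.25, adjusted p = 0.0166, and 0.074 to 0.108 without any 1 early L4 library). The myosin heavy chain gene unc-54 had 3706, 3513 and 7139 CPM in late L4 and 2269, 2042 and 1577 CPM in early L4, separate but not called (adjusted p = 0.0633, and 0.0269 without late L4 replicate 3). All of these levels were higher in every late L4 library than in any early L4 library. In late L3 the summed share of the list was 4.4%, 4.72% and 5.37%. All 17 muscle genes called higher had a late L3 mean at or above the early L4 mean, as did 470 of all 706 genes called higher. The count of the list was 1 without early L4 replicate 2, 2 without early L4 replicate 1 or early L4 replicate 3, 6 without late L4 replicate 1, 9 without late L4 replicate 2 and 20 without late L4 replicate 3, and 4 in the fit over all 24 libraries.

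Basement membrane genes included 8 of 24 that rose (33.3%) and 0 that fell, with a median of 0.39. The type IV collagen gene let-2 had 6990, 6432 and 15197 CPM in late L4, against 2550, 2463 and 1878 CPM in early L4 (log2 fold change 2.05 ± 0.37, adjusted p = 0.0187). Its partner chain gene emb-9 had 1656, 1463 and 3046 CPM in late L4 and 601, 590 and 484 CPM in early L4 (log2 fold change 1.88 ± 0.33, adjusted p = 0.016). The papilin gene mig-6 had 3357, 2793 and 7283 CPM in late L4 and 1089, 1110 and 1042 CPM in early L4 (log2 fold change 2.05 ± 0.38, adjusted p = 0.0201). Late L4 replicate 3 was the highest of its group for all 3, and without it their adjusted p was 0.00185, 0.00284 and 0.00144. All 3 calls were lost without any 1 early L4 library (adjusted p 0.0789 to 0.111), and the list's count was then 0 or 1. The laminin beta gene lam-1 had 30.3, 25.9 and 45.5 CPM in late L4 and 21.7, 42.7 and 27.6 CPM in early L4 (adjusted p = 0.879). DTCs make these matrix genes at far higher levels, with a let-2 mean of 85281 CPM at late L4 and 70019 CPM at early L4. In other cells the 16 listed DTC genes summed to 0.411%, 0.348% and 0.794% of counts in late L4. In early L4 the sum was 0.178%, 0.187% and 0.164%. mig-6 alone made up most of this sum in each of these libraries, so the sum largely restates the mig-6 values above. Of single genes of the list, srt-62 had no count in late L4, mig-21 had 0.3, 2.36 and 0.315 CPM in late L4 and 2.62, 1.41 and 3.26 CPM in early L4, and lron-2 had 8.32, 3.57 and 5.28 CPM in late L4 and 0.119, 2.5 and 0.367 CPM in early L4. catp-5 had 15.7, 0.0714 and 3.15 CPM in late L4 and 0.397, 0.626 and 1.83 CPM in early L4, and egl-36 and skpo-1 were higher in each late L4 library than in any early L4 library. The part of DTC RNA in the levels of the matrix genes was not tested.

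Pharynx genes, a list of muscle, gland and regulatory genes and of abu and pqn genes with prion-like repeats, included 12 of 24 that rose (50%) and 0 that fell, with a median of 1.6. abu-1 had 41.1, 45.8 and 8.43 CPM in late L4, against 0.953, 0.274 and 0.693 CPM in early L4 (log2 fold change 5.62 ± 0.81, adjusted p = 0.00805, and 0.0638 without early L4 replicate 3). abu-6 had 14.7, 23.8 and 2.13 CPM in late L4 and no count in early L4, at least 349-fold higher (adjusted p = 0.0164). The pharyngeal myosin gene myo-2 had 90.6, 118 and 40.7 CPM in late L4 and 19.2, 59.3 and 44.2 CPM in early L4, with overlapping groups (adjusted p = 0.318). Late L4 replicate 3 was the lowest of its group for 18 of the 24, against 27.9% of all genes. The count was 12 without it, 7 without late L4 replicate 2, 3 without late L4 replicate 1, 2 without early L4 replicate 1 or early L4 replicate 2, 0 without early L4 replicate 3 and 1 in the fit over all 24 libraries. The abu genes share repeats, so single members are uncertain.

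Several smaller groups held called members, with shares to be read against 4.87% of all genes called higher and 1.34% called lower. In the transthyretin-like family, 12 of 55 rose (21.8%) and 0 fell, with 5 higher without early L4 replicate 3, 6 without early L4 replicate 1 and 3 in the fit over all 24 libraries, and ttr-14 had 616, 772 and 624 CPM in late L4, against 118, 64.7 and 74.5 CPM in early L4 (log2 fold change 2.97 ± 0.31, adjusted p = 0.0023). In the astacin metalloprotease family 5 of 28 rose (17.9%) and nas-3 fell (3.57%). The number higher was 2 without early L4 replicate 1 or early L4 replicate 3 and 9 without late L4 replicate 3. It was 3 without early L4 replicate 2, late L4 replicate 1 or late L4 replicate 2. nas-20 had 393, 280 and 335 CPM in late L4, against 1.39, 0 and 2.65 CPM in early L4 (log2 fold change 7.96 ± 1.16, adjusted p = 0.00831, and 0.0574 without early L4 replicate 1). Of 16 sheath and spermatheca genes 3 rose (18.8%), among them sth-1. It had 34.4, 41.7 and 22.4 CPM in late L4 and 8.5, 3.13 and 5.63 CPM in early L4. Its log2 fold change was 2.51 ± 0.46 (adjusted p = 0.0197), called in 2 of the 6 fits with a library left out. The sheath and spermatheca count was 5 without late L4 replicate 3 and 0 or 1 without any other library. Of 10 sex muscle genes 2 rose (20%). The T-box gene mls-1 of uterine muscle had 64, 61.7 and 108 CPM in late L4 and 19.2, 18.9 and 14.8 CPM in early L4 (log2 fold change 2.15 ± 0.32, adjusted p = 0.00891). That call was lost without early L4 replicate 2 or early L4 replicate 3 (adjusted p = 0.0501 and 0.0621). Of 9 genes of coelomocytes, the scavenger cells of the body cavity, cup-16 and F58H10.1 rose (22.2%). cup-4 had 718, 601 and 1889 CPM in late L4 and 397, 390 and 391 CPM in early L4 (log2 fold change 1.45 ± 0.43, adjusted p = 0.101), and without late L4 replicate 3 the log2 fold change was 0.75 (adjusted p = 0.0433). The coelomocyte count was 1 without early L4 replicate 1, early L4 replicate 2 or late L4 replicate 1 and 4 without late L4 replicate 3. Of 25 hypodermis and seam genes 6 fell (24%) and 2 rose (8%). The 6 were dpy-7, nhr-23, nhr-25, wrt-2, mlt-11 and fbn-1, all held by the lists above too. The number lower was 0 without early L4 replicate 1 or early L4 replicate 3, and 1 without early L4 replicate 2. It was 3 without late L4 replicate 1 and 2 without late L4 replicate 2. Without late L4 replicate 3, 4 were higher and 8 lower. Of 28 intestine genes only the lysozyme gene lys-8 was called (3.57%). Its log2 fold change was 1.32 ± 0.28 (adjusted p = 0.0335), called in 1 of the 6 fits with a library left out. Of 34 genes of vulval and uterine morphogenesis nhr-113 fell (2.94%). Its log2 fold change was -3.12 ± 0.69 (adjusted p = 0.0392, in 2 of the 6 such fits).

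Counts of further families are read against 4.87% of all genes called higher and 1.34% called lower. C-type lectins had 9 of 84 higher (10.7%) and 4 lower (4.76%), with 3 higher and 0 lower without early L4 replicate 3 and 0 or 1 lower without early L4 replicate 1, early L4 replicate 2 or late L4 replicate 1. Cuticlin-like genes had 0 of 29 higher and 3 lower (10.3%), with 0 lower without any 1 early L4 library and 1 without late L4 replicate 2. Nuclear hormone receptors had 0 of 171 higher and 4 lower (2.34%), with 0 or 1 lower without any 1 library other than late L4 replicate 3 and 6 without it. Histones had 2 of 33 higher (6.06%) and 1 lower (3.03%), cytochrome P450 genes 1 of 48 higher (2.08%) and 2 lower (4.17%), and fbxa F-box genes 1 of 74 higher and 1 lower (1.35% each). No count of these 3 families held in every fit with a library left out. Of 17 excretory genes let-4 fell (5.88%), and neuropeptide genes had 2 higher (1.77%, nlp-24 and nlp-40) and 0 lower. Without late L4 replicate 3, which was the lowest late L4 library for 99 neuropeptide genes, 11 neuropeptide genes were called higher.

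Other lists held 0 called genes in edgeR. At an unadjusted p under 0.05, 10 of 16 nspc and 6 of 9 nspd peptide genes were higher and 0 lower, and DESeq2 called 5 and 4 higher. At that p 0 of 14 glial genes were higher and 3 lower, 0 of 36 oxidative phosphorylation genes higher and 1 lower, and 1 of 31 genes of collagen secretion and protein folding higher and 5 lower. DESeq2 called 0 higher in these 3 lists and 3, 0 and 2 lower. Of 78 cytosolic ribosomal protein genes 0 had a positive log2 fold change and 15 were lower at an unadjusted p under 0.05, with a median of -0.52, and DESeq2 called 2 lower. rps-1 had 1147, 1290 and 944 CPM in late L4 and 1535, 1700 and 1698 CPM in early L4, separate but not called (adjusted p = 0.218). Of 46 cell cycle genes 4 were higher and 3 lower at an unadjusted p under 0.05, DESeq2 called 2 higher and 1 lower, and the median was -0.04. Of 23 developmental timing genes 1 was higher and 2 lower at that p, DESeq2 called 0 higher and 2 lower, and the median was -0.13. Without late L4 replicate 3 edgeR called 3 timing genes lower. lin-29, the timing factor of the larva-to-adult switch, had 20.2, 14.6 and 11.2 CPM in late L4 and 17, 16.4 and 20.8 CPM in early L4 (adjusted p = 0.776). Of 49 neuron genes 5 were higher and 0 lower at an unadjusted p under 0.05, DESeq2 called 3 higher, and the median was 0.67. The neuropeptide gene flp-1 had 284, 275 and 34 CPM in late L4 and 68.3, 86.7 and 93.4 CPM in early L4 (adjusted p = 0.354). Late L4 replicates 1 and 2 lay above all early L4 libraries and replicate 3 below them, and without replicate 3 11 of the neuron genes were called higher and flp-1 too (adjusted p = 0.00315).

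The step from early to late L4 in other cells was set against the same step in DTCs, in a fit over the 12 libraries of both fractions. Of 15309 genes tested, 102 had a higher step in other cells (0.666%) and 72 a lower one (0.47%), 1.14% in either direction. The lists of col collagens, body-shape collagens, precuticle, uterine lumen, yolk and major sperm proteins held 0 genes with a called difference. On simulated data that test called 12% of differences of 3 on the log2 scale and 0% of smaller ones, so 0 calls does not show equal steps. In the DTC libraries of the same fit 42 of 127 col genes, 5 of 5 uterine lumen genes, 5 of 6 vitellogenin genes and 15 of 29 major sperm protein genes were called higher at late L4 (6.55% of all genes). Of 18 precuticle genes 6 were called lower (3.68% of all genes). Of the 24 genes of the body-shape list, col-7, col-19 and col-62 among them, 3 were higher and 6 lower. The median log2 step of the uterine lumen list was 5.77 in DTCs, against 7.91 for other cells in their own fit, and that of the yolk list was 9.85, against 6.34. The mean of col-19 in DTCs was 707 CPM at late L4 and 0.658 CPM at early L4, below that of other cells at both stages. vit-2 reached a DTC mean of 714 CPM at late L4, above the mean of 318 CPM in other cells, and 0.763 CPM at early L4. Genes known from epidermis, uterus, intestine and sperm were thus measured in the DTC libraries too, and the part of RNA from other cells in those values was not tested.

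Among single genes, the haem peroxidase gene skpo-1 (chrII:8400299-8404848) showed a large difference. It had 131, 149 and 152 CPM in late L4 and 1.99, 1.1 and 0.652 CPM in early L4 in other cells, a log2 fold change of 6.84 ± 0.47 (adjusted p = 0.000457). In DTCs it had 27.6, 61.5 and 33 CPM in late L4 and 34.8, 33.3 and 34 CPM in early L4. The difference of the steps was 6.59 ± 0.58 (log2, SE, adjusted p = 0.00112). The level in other cells was thus below that of DTCs at early L4 and above it at late L4, in all libraries, and adults of the other cells held 445, 744 and 772 CPM. This call, and that of the potassium channel subunit gene mps-2, held with any 1 of the 12 libraries left out. mps-2 had 55.2, 39 and 41 CPM in late L4 and 27.8, 24.18 and 44.1 CPM in early L4 in other cells. In DTCs it had 609, 514 and 1041 CPM in late L4 and 24.7, 21.2 and 7.27 CPM in early L4, and the difference of the steps was -4.85 ± 0.63 (adjusted p = 0.00628).

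Of 24 basement membrane genes, 5 had a higher step in other cells, against 0.666% of all genes. The fibulin gene fbl-1 alone had a lower one, against 0.47% of all genes. Its call held in 1 of the 12 fits with a library left out, with an adjusted p of up to 0.101. The laminin alpha gene epi-1 had 682, 736 and 1329 CPM in late L4 and 420, 331 and 273 CPM in early L4 in other cells, whereas its DTC mean was 5934 CPM in late L4 and 12743 CPM in early L4 (difference of the steps 2.53 log2, adjusted p = 0.0135), a call that held with any 1 of the 12 libraries left out. For mig-6 the DTC means were 22518 CPM in late L4 and 32326 CPM in early L4 (difference 2.57 log2, adjusted p = 0.0218), called in 5 of the 12 such fits. The dual oxidase gene bli-3, which crosslinks cuticle proteins, had 28, 28.3 and 8.75 CPM in late L4 and 16.4, 12.4 and 16.7 CPM in early L4 in other cells. Its DTC mean was 70.5 CPM in late L4 and 5.71 CPM in early L4 (difference -3.11 log2, adjusted p = 0.0352), called in 3 of the 12 such fits with an adjusted p of up to 0.1030.

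**Figure D5:**
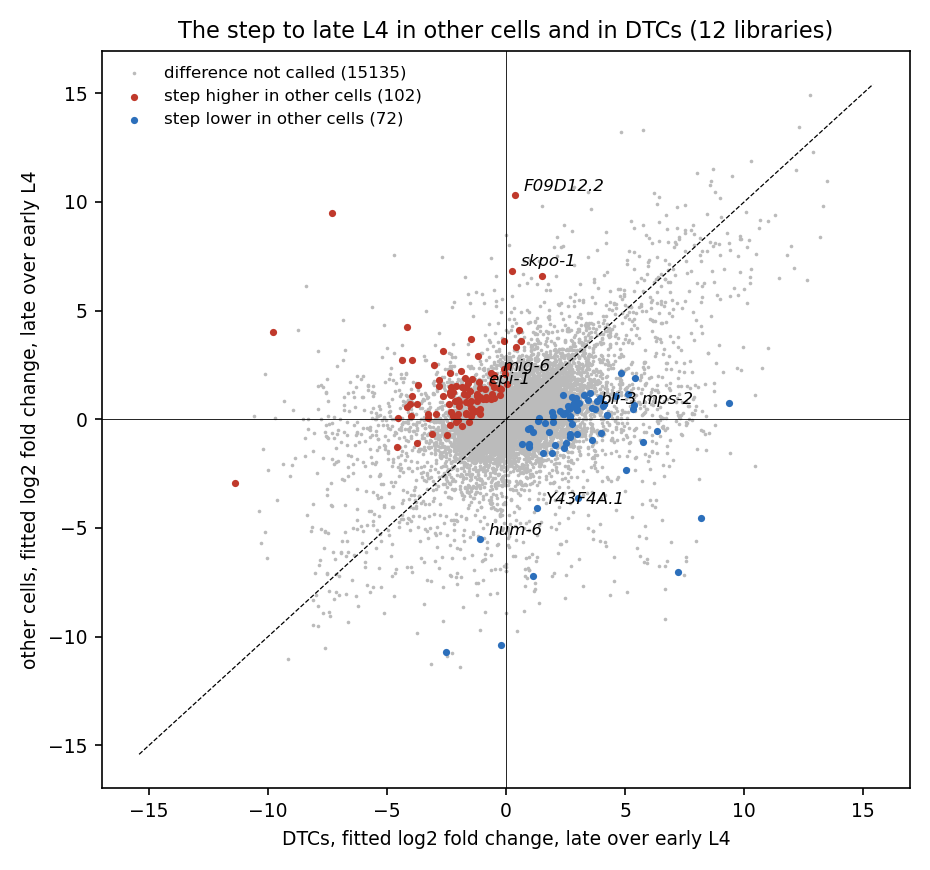
Fitted log2 fold change of late over early L4 in other cells (vertical axis) against that in DTCs (horizontal axis), from the fit over 12 libraries, 1 point a gene. Red points mark the 102 genes whose step was higher in other cells and blue points the 72 whose step was lower, and the dashed line marks equal steps.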

How the data were processed

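Polyadenylated RNA was sequenced after miRNeasy extraction and Nextera XT preparation from 1 ng of cDNA, per the labels' protocols. The deposited values are whole raw read counts per gene, 46778 gene IDs by 24 libraries, and 0 columns were left unused. FastQC, cutadapt, Bowtie2, HTSeq and the ce11 build are named in the submitters' processing notes, with versions and strand setting not given in the sources used here. Reads of overlapping genes on opposite strands therefore cannot be told apart. Positions come from Ensembl release 115 (WBcel235, the same assembly as ce11), which held 99.6% of IDs, and 93.7% had a symbol.

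From the counts, low genes were removed with edgeR's filterByExpr on the groups being compared, TMM factors were computed over all 24 libraries, and edgeR 4.0.16 (R 4.3.3) fitted a quasi-likelihood model to the 6 libraries (common biological coefficient of variation 0.596). Adjusted p means that test after Benjamini-Hochberg adjustment, called means adjusted p under 0.05, and the error after a log2 fold change is its SE. CPM is the count relative to the TMM-scaled library total, and so is a relative level. It differs from the summed shares of lists, which are percentages of raw counts. The TMM factors of other cells were 1.1214, 1.1461 and 1.0489 in late L4 and 1.4217, 1.4723 and 1.3956 in early L4. At an equal share of counts, CPM is therefore higher in late L4 than in early L4. A group without counts was set against a floor of 3 counts over the group, a group with 1 to 3 counts got a 95% counting interval, and both cover counting error only. The difference from DTCs used 12 libraries (variation 0.67).

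The comparison, the 42 gene lists and the rule for named genes were chosen with earlier results of these data known. The lists were written from general knowledge, and 26 listed genes matched no symbol. The rule named the 15 called genes of largest rise and of largest fall with at least 20 CPM in the higher group, separate libraries and at most 2 per symbol prefix (the part before the dot where a name has no hyphen). It also named key genes and the 3 most changed called genes of each list, and for the difference from DTCs 6 genes a direction. Genes named only with a list are taken from its called members.

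On simulated data for the 6 libraries (13904 genes), the test called 2%, 16%, 42% and 74% of genes changed by 1, 1.5, 2 and 3 on the log2 scale, and 2.9% of its calls were false. For the difference from DTCs (14622 genes) it called 0%, 0%, 0% and 12%. Changes were simulated in a small set of genes above a minimum level, with 1 spread per gene for all libraries. In the data the deviation within groups was 0.777 in late L4 and 0.482 in early L4 (root mean square, log2 scale). The simulated rates may therefore not hold for these libraries. Same-numbered samples did not deviate together (correlations across genes of -0.143, -0.015 and -0.281), so replicate numbers were not used as pairs. Alternatives were RLE scaling, TMM over the fitted libraries, DESeq2 1.42.0, other filters, wider fits, each library left out, a replicate block, a robust spread, no ribosomal RNA or mitochondrial genes, and thinned counts.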

Additional observations from a re-analysis of the deposited data

Results flagged for a closer look

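The step from early to late L4 differed between other cells and DTCs in 174 genes, by a test of the difference itself. The values are log2, the step in other cells minus that in DTCs. Of the 12 differences taken by the naming rule, those of skpo-1 (6.59), mps-2 (-4.85) and the unnamed gene F09D12.2 (9.92) passed the threshold in every fit with 1 of the 12 libraries left out. Among the key genes of the lists, those of epi-1 (2.53) and the protein disulfide isomerase gene pdi-6 (2.27, adjusted p = 0.0132) did so too. The step of pdi-6 in other cells alone was small. It was 0.08 to 0.31 in the 6 fits with 1 of their libraries left out (adjusted p 0.6 to 0.835). F09D12.2 had 7.35, 4.64 and 17.6 CPM in late L4 and no count in early L4 in other cells, at least 243-fold higher, and 460, 439 and 440 CPM in late L4 and 328, 359 and 342 CPM in early L4 in DTCs, so that its fitted difference is no bound. Y43F4A.1 (-5.42) lost its call without DTC early L4 replicate 1 (adjusted p = 0.0525). It had 0.675, 2.43 and 0.63 CPM in late L4 and 25.6, 12.4 and 26.5 CPM in early L4 in other cells, and 25.4, 14.2 and 30.8 CPM in late L4 and 10.6, 11.7 and 5.94 CPM in early L4 in DTCs.

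The other differences of the naming rule were less stable, with calls in 0 to 6 of the 12 such fits. The UDP-glucuronosyltransferase gene ugt-57 (8.45) had 3.07, 7.21 and 1.1 CPM in late L4 and 18.1, 32 and 37.1 CPM in early L4 in other cells, and no count in late L4 and 11.8, 20.4 and 30.5 CPM in early L4 in DTCs, there at least 232-fold lower. The bHLH factor gene hlh-12 (7.09) had 1.2, 0.357 and 2.99 CPM in late L4 and 0.278, 0.391 and 0 CPM in early L4 in other cells, and 2.56, 5.71 and 2.56 CPM in late L4 and 63.5, 66.2 and 96.8 CPM in early L4 in DTCs. tbc-16 (8.38) and Y59E9AL.4 (6.67) likewise were low in other cells and lower at late L4 in DTCs. Differences of the opposite sign were K04C2.7 (-6.81), the kinase gene nekl-4 (-6.63), the fibulin gene fbl-1 (-4.70) and the locus annotated cel-mir-8199 (-7.35), each with higher late L4 levels in DTCs. The locus cel-mir-8199 had 1 count in late L4 and 12 counts in early L4 in other cells, and its call held in 0 of the 12 fits.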

How the results depend on the processing

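The counts of 901 called genes (706 higher, 195 lower) and 174 differences from DTCs (102 higher, 72 lower) moved with the fit. None of the summary counts and named genes recomputed under the alternatives changed the direction of a call, which was not tabulated for every called gene. DESeq2 called 1995 genes (1410 higher, 585 lower), all 901 among them, and 719 differences (388 and 331). Without a filter on low counts 1352 genes were called (342 lower). The fit over all 24 libraries, whose coefficient of variation was 0.835, called 353 (312 and 41), of which 319 were shared, and 64 differences (36 and 28). The fit over the 12 libraries of other cells called 383 (341 and 42). Leaving out 1 library gave 250 to 1426 calls (227 to 946 higher, 23 to 480 lower), fewest without early L4 replicate 3 and most without late L4 replicate 3, and 44 to 175 differences (27 to 102 higher, 17 to 73 lower). The replicate block called 361 genes (310 higher and 51 lower) and 70 differences (41 and 29), and the samples share only a number. RLE scaling called 1042 genes and moved the median of all genes to 0.10, and the other scalings, filters, the robust spread and thinning stayed within 1.5 times. Of 125 named genes called, 41 were called in all 6 fits with a library left out. Causes were not tested. The promoter motif search was not run, since no promoter sequences were at hand. With 3 libraries a group, the test on simulated data called 42% of changes of 2 on the log2 scale and 74% of changes of 3. Smaller changes were called less often, so a gene not called is not shown to be unchanged.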

Other observations

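Genes called higher at late L4 were not spread evenly over the chromosomes, as a description without a test. On the X chromosome 179 of 1992 genes tested were higher (8.99%), against 526 of 12466 on the autosomes (4.22%), and the median log2 fold change was 0.46 against -0.05. Without late L4 replicate 3 the shares were 10.3% and 5.47%. The share called lower was 2.31% on X and 1.2% on the autosomes.

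Some risen genes lay side by side. Runs of at least 4 genes called higher with starts within 5000 bases of each other were found at 4 places, chosen after their values were seen. On chrX:3441839-3446935 all 4 genes tested rose, among them ZK813.3, with 213, 485 and 787 CPM in late L4 and 0, 1.06 and 0 CPM in early L4 (adjusted p = 0.00683). On chrX:11879110-11884042 the 4 genes tested, Y62H9A.3, Y62H9A.4, Y62H9A.5 and ule-5, all rose. ule-5 had 163, 414 and 636 CPM in late L4 and 0.556, 1.41 and 0.204 CPM in early L4 (adjusted p = 0.00183), and each of the 4 ranked the late L4 libraries in 1 order, replicate 3 highest and replicate 1 lowest. On chrV:14079801-14087188 all 4 genes tested rose, and D1086.10 had 3430, 3530 and 5920 CPM in late L4 and 359, 299 and 349 CPM in early L4 (adjusted p = 0.00099). On chrV:9625422-9633338 idpc-4, idpc-3, col-146 and col-147 rose, 4 of 6 genes tested, and idpc-3 had 222, 205 and 20.4 CPM in late L4 and 7.66, 13.2 and 3.38 CPM in early L4 (adjusted p = 0.0357).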
